A study of Mus musculus with 6 samples.

Results

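The genes described here code for the enzymes, transporters and regulators that keep peroxides, disulfides and reactive electrophiles low in a cell: the makers of glutathione, the glutathione and thioredoxin systems, superoxide dismutases and catalase, quinone reductases, glutathione transferases, and the regulators NRF2, NRF1 and KEAP1. A fixed list of 54 gene symbols was looked up in the deposited gene count table, and all 54 were found among its 54715 genes. The libraries were bulk RNA-seq of mouse advanced embryonic stem cells (ASCs), pluripotent cells kept in ABCL medium, which holds activin A, BMP4, the GSK3 inhibitor CHIR99021 and leukemia inhibitory factor. There were 3 libraries of wild type (WT) ASCs and 3 of *Bdh2*-/- ASCs, both from a cross of a 129/sv mother with a GOF/GFP father, the father carrying an *Oct4*-driven GFP reporter. *Bdh2* codes for a short-chain dehydrogenase with a role in making the mammalian siderophore, a small molecule that binds iron. The mutation was made with CRISPR/Cas9 and lines were grown from single colonies, so the knockout group may stand for 1 clone. The labels do not say whether the 3 libraries of a genotype came from separate cultures, and p-values then measure only the spread between these libraries, which may be technical.

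Glutathione is a tripeptide of glutamate, cysteine and glycine, and its free thiol lets it reduce peroxides and be joined to electrophiles. Glutamate-cysteine ligase makes the first bond and limits the rate, cystine taken up by the xCT transporter supplies the cysteine, and glutathione reductase returns the oxidized dimer to its reduced form at the cost of NADPH. Thioredoxin and its selenium-containing reductases do the same work for protein disulfides and for the peroxiredoxins. The transcription factor NRF2 (*Nfe2l2*) is held down by KEAP1, and when released it drives many of these genes through antioxidant response elements.

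Counts summed to between 18927748 and 28333541 per library, so 3 counts corresponded to between 0.106 and 0.158 counts per 1000000 of these totals. The values per library below are counts per 1000000 (CPM) on the TMM-normalized library size. *Bdh2* itself read 10.5, 9.56 and 8.27 CPM in the WT libraries, in the order of replicates 1, 2 and 3, and 5.95, 4.99 and 5.38 CPM in the knockout libraries, a log2 fold change of -0.79 ± 0.12 (SE) with an edgeR adjusted p of 0.000246. The 10 pluripotent cell markers summed to between 7288 and 7371 CPM in WT and, without overlap, to between 7445 and 7567 CPM in knockout libraries, 5 of them passing as higher and 1 as lower. The 13 primitive endoderm markers, genes of the extraembryonic lineage that lines the yolk sac, summed to between 368 and 409 CPM in WT and between 900.2 and 994 CPM in knockout libraries. Transcripts of adult hepatocytes, a cell type that the labels do not name, summed over 20 markers to 537, 331 and 50.4 CPM in WT replicates 1, 2 and 3 and to 38.8, 154 and 27.2 CPM in knockout replicates 1, 2 and 3. For 19 of these 20 markers the order of the libraries was the same, with WT replicate 1 highest, then WT replicate 2, then knockout replicate 2, then the other three. The part of the hepatocyte transcripts in a result was not tested beyond the values given beside it below, and that of the primitive endoderm and pluripotent cell genes was not tested. In bulk RNA, fewer cells of a type and less RNA per cell cannot be told apart.

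Of the 54 genes, 53 passed the filter on low counts. The exception was *Mgst2*, a microsomal glutathione transferase, with counts of 5, 2 and 4 in WT and 1, 3 and 1 in knockout libraries. Of the 53 tested, 35 passed an adjusted p of 0.05 (66.0%), where 41.7% of all 16758 tested genes did. The latter share includes many genes with few counts. With a mean count of at least 50 as the filter, 6359 of 12718 genes passed, and of the list 17 as higher and 20 as lower. In the main fit the 35 genes divided into 17 that rose in knockout ASCs (21.0% of all tested genes rose) and 18 that fell (20.8% of all tested genes fell). The share of higher genes among those called was 48.6%, and scaling by library totals without TMM moved it to 35.9%, with 14 higher and 25 lower; *Ggct*, *Gpx4*, *Prdx2*, *Prdx4*, *Glrx*, *Glrx2* and *Cat* then passed as lower too, and *Txn2*, *Nfe2l2* and *Gstp1* no longer passed. No called gene changed direction under any of the settings run. The changes were mostly small, as they were among all called genes: 12 of the 17 higher and 9 of the 18 lower genes changed by less than 0.5 on the log2 scale. Called genes of the list that reached 0.5 numbered 14 (15.4% of all tested genes did so), and 4 reached 1, where 5.29% of all tested genes did. Of the 6996 genes called in the whole table, 2587 reached 0.5. The median log2 fold change was -0.13 over the 53 genes and -0.01 over all tested genes, and the median of its absolute size was 0.26 and 0.23. Whether the counting used strand is not stated, so reads of an antisense gene may be included for genes that overlap one: of the called genes, more than 10% of exon bases lie in exons on the opposite strand for *Txnip* (19.4%), *Prdx5* (19.1%, *Trmt112*), *Gss* (15.4%), *Gstm5* (13.9%), *Gstz1* (12.2%) and *Keap1* (10.9%). All 3 knockout libraries lay outside the range of the 3 WT libraries for 38 of the 53 genes, where this held for 52.4% of all tested genes.

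**Figure D1:**
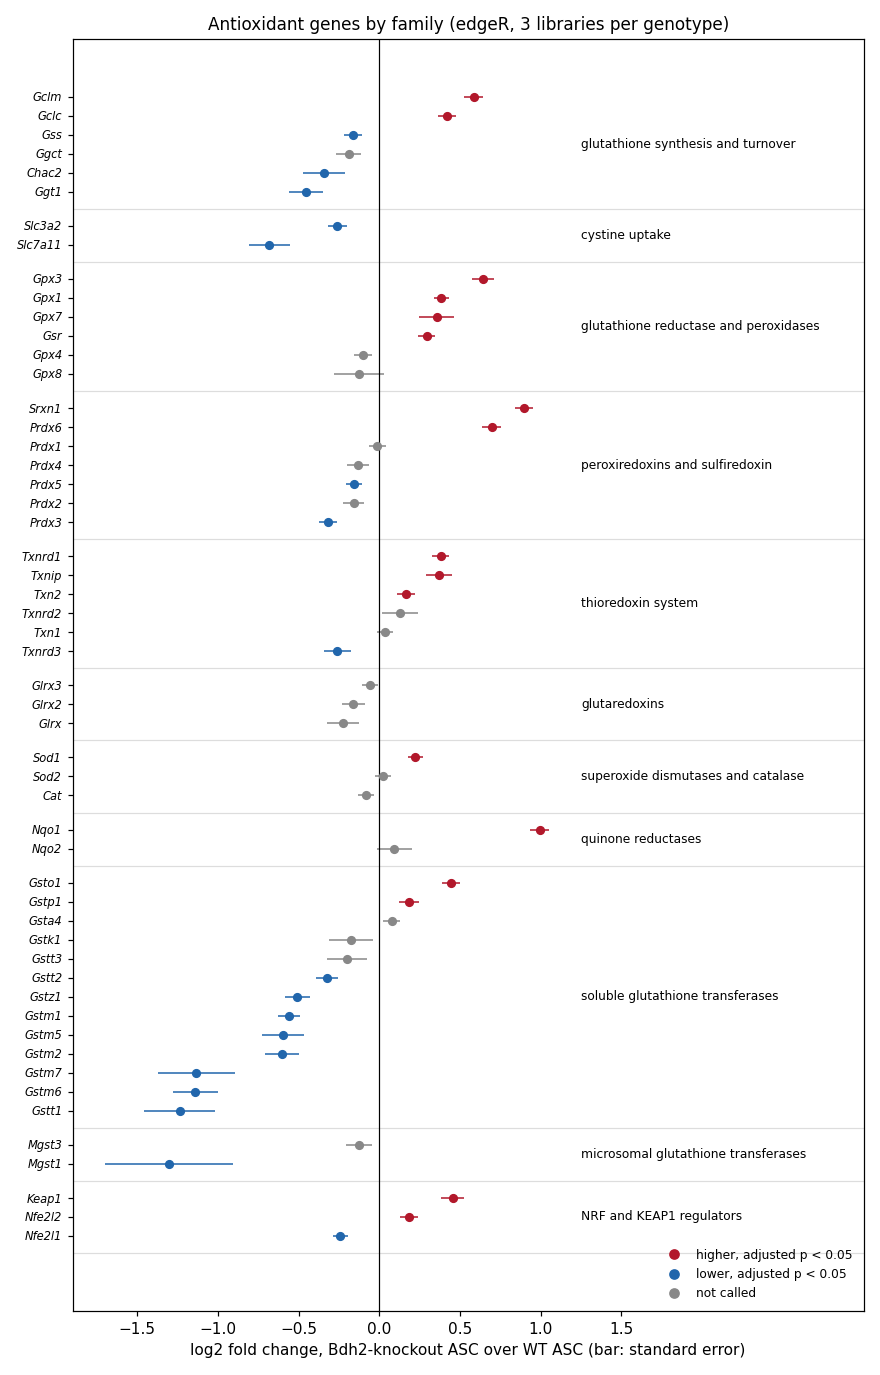
Log2 fold change of knockout over WT ASCs on the horizontal axis for the 53 tested genes, arranged by family, with the standard error as a bar. Red genes passed an adjusted p of 0.05 as higher (17), blue as lower (18) and grey did not pass (18); *Nqo1* and *Srxn1* lie farthest to the right, while *Mgst1*, *Gstt1*, *Gstm6* and *Gstm7* lie below -1.

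Some of these genes carry the core of the antioxidant response element, TGACNNNGC, in the 300 bases around their start. RefSeq promoters (GRCm38.p6, 250 bases before to 50 after the start) were listed for 49 of the 54 genes, and not for *Gclc*, *Gsr*, *Prdx6*, *Gsta4* and *Gstt2*. The motif was found on either strand in 11 of the 49 genes (22.4%), where 16.8% of the tested genes with a promoter had it. By promoter, it was in 13 of 73 (17.8%), against 12.4% of all 32851 promoters and 14.2% of those of tested genes. Sites that lay before a RefSeq start are shown for 3 genes that rose, 1 that did not pass and 3 that fell, since they show that the motif was found in windows of genes of each kind. Distances are to the RefSeq start of the window, and a gene may have several starts: by the gene bounds of GENCODE M21, the *Txnrd1*, *Gstm7* and *Mgst1* sites lie inside the gene, after its outermost start. Each is written 5′ to 3′ on the strand that carries the motif, with the motif in capitals:
Gclm: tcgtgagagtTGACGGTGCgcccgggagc
Txnrd1: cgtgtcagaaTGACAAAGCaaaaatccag
Sod1: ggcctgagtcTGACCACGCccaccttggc
Prdx1: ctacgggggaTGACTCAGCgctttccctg
Gstm5: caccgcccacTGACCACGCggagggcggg
Gstm7: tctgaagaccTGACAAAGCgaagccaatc
Mgst1: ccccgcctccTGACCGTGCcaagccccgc
The *Gclm* site (chr3:122245413-122245441, minus strand) was centred 130 bases before that start and the *Txnrd1* site (chr10:82859104-82859132, minus strand) 88 bases before. The *Sod1* site (chr16:90220696-90220724, minus strand) was centred 52 bases before it and that of *Prdx1* (chr4:116685456-116685484, minus strand) 129 bases before. For the genes that fell, the sites were at chr3:107895802-107895830, plus strand (*Gstm5*, 38 bases before), at chr3:107931725-107931753, minus strand (*Gstm7*, 125 bases before) and at chr6:138140461-138140489, minus strand (*Mgst1*, 52 bases before). The other matches were in *Ggct*, *Ggt1*, *Nfe2l2* and *Srxn1*. No match was found in the listed promoter of *Nqo1*, which says only that these letters were not in that window.

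Glutathione synthesis showed its first step higher and its second step lower. Both subunits of glutamate-cysteine ligase rose, and glutathione synthetase and the enzymes that break glutathione down or recycle its parts were lower or did not pass. *Gclm* codes for the modifier subunit and lies at chr3:122245557-122270732 (GRCm38). It read 63.8, 69.5 and 74.4 CPM in WT replicates 1, 2 and 3 and 105, 102 and 104 CPM in knockout replicates 1, 2 and 3. All 3 knockout libraries were above all 3 WT libraries, and the log2 fold change was 0.58 ± 0.059 (edgeR adjusted p 8.73e-06). Its catalytic partner *Gclc* rose by 0.42 ± 0.054 (adjusted p 6.5e-05). *Gss*, which adds the glycine, fell by 0.17 on the log2 scale with an SE of 0.054 (adjusted p 0.0266). Of the genes of turnover, *Ggt1* (the membrane gamma-glutamyltransferase that starts the breakdown of extracellular glutathione) had a log2 fold change of -0.46 ± 0.11, and *Chac2* (a cytosolic glutathione-degrading cyclotransferase) one of -0.35 ± 0.13, both passing as lower. *Ggct*, which releases 5-oxoproline from gamma-glutamyl amino acids, did not pass at -0.19 (adjusted p 0.0599), although its 3 knockout libraries lay below the WT range. It passed as lower under 3 of the 14 settings (library totals, a mean count of at least 50, and without WT replicate 3). The calls of *Gss* and *Chac2* were lost under 8 and 10 of the 14 alternative settings.

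The 2 subunits of the cystine-glutamate exchanger xCT fell together. *Slc7a11*, the subunit that carries cystine (chr3:49892526-50443614), read 6.80, 7.43 and 7.32 CPM in WT replicates 1, 2 and 3 and 4.65, 4.80 and 3.96 CPM in knockout replicates 1, 2 and 3. The groups did not overlap, and the log2 fold change was -0.68 ± 0.12 (adjusted p 0.000816). *Slc3a2*, the heavy chain shared with several other amino acid transporters, changed by -0.26 ± 0.058 (adjusted p 0.00287). The levels of the subunits were far apart. Per length, *Slc3a2* stood at 103 ± 7.62 FPKM in WT (SD, n = 3, CPM per kilobase of the gene length listed with the counts) and *Slc7a11* at 0.516 ± 0.0242 FPKM, the lowest of the 53 tested genes.

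Glutathione reductase and 3 of the 5 listed glutathione peroxidases rose, and none of these 6 genes passed as lower, except *Gpx4* with library totals or without WT replicate 3. Of all tested genes, 21.0% rose and 20.8% fell. Outside the list, the wider pathway holds *Gpx2*, the gastrointestinal peroxidase, which fell: it read 82.5, 75.3 and 77.1 CPM in WT and 64.4, 64.6 and 69.3 CPM in knockout replicates 1, 2 and 3, with no overlap (log2 -0.24 ± 0.055, adjusted p 0.00334). *Gpx6*, also outside the list, did not pass (-0.42 ± 0.22, adjusted p 0.135). Of the listed genes *Gpx3*, the secreted peroxidase, changed most. Its levels were 15.2, 16.0 and 14.9 CPM in WT replicates 1, 2 and 3 and 24.8, 24.2 and 22.8 CPM in knockout replicates 1, 2 and 3, with no overlap and a log2 fold change of 0.64 ± 0.069 (adjusted p 1.29e-05). The cytosolic *Gpx1*, the most abundant of them per length, went from 187 ± 7.23 to 243 ± 1.54 FPKM (log2 0.38 ± 0.047, adjusted p 4.24e-05). *Gsr*, which reduces oxidized glutathione, rose by 0.29 ± 0.053, and *Gpx7*, a peroxidase of the endoplasmic reticulum, by 0.36 ± 0.11. The other reticulum enzyme, *Gpx8*, did not pass at -0.13 (adjusted p 0.535). *Gpx4*, the phospholipid hydroperoxidase that guards membranes against lipid peroxidation, did not pass either at -0.10 (adjusted p 0.16), and 61.7% of the 50-base stretches of its longest transcript also occur in other annotated genes, so its count is uncertain. The *Gpx7* call was lost under 4 of the 14 alternative settings.

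Among the peroxiredoxins, thiol peroxidases recycled mostly by thioredoxin, single members moved in opposite directions. *Prdx6*, the one-cysteine peroxiredoxin that uses glutathione instead, read 96.4, 92.8 and 106 CPM in WT replicates 1, 2 and 3 and 153, 164 and 161 CPM in knockout replicates 1, 2 and 3. Every knockout library was above every WT library (log2 0.70 ± 0.058, adjusted p 1.77e-06). Sulfiredoxin (*Srxn1*, chr2:152105516-152111376), which restores overoxidized peroxiredoxins, read 38.2, 37.7 and 40.3 CPM in WT replicates 1, 2 and 3 and 74.2, 68.8 and 73.5 CPM in knockout replicates 1, 2 and 3. This was 1.86-fold higher (log2 0.90 ± 0.054, adjusted p 1.42e-07), again without overlap. The mitochondrial *Prdx3* fell, with a log2 fold change of -0.32 ± 0.054 (adjusted p 0.000495). *Prdx5*, found in mitochondria, peroxisomes and cytosol, changed by -0.16 ± 0.050 (adjusted p 0.0242), a call lost under 7 of the 14 settings. The abundant cytosolic *Prdx1* (-0.01) and *Prdx2* (-0.16) and the *Prdx4* of the secretory pathway (-0.13) did not pass. *Prdx2* passed as lower under 5 of the 14 settings (DESeq2, library totals, no filter, a mean count of at least 50, and without WT replicate 2), and *Prdx4* under 2 (library totals, and without WT replicate 3). Summed over the 7 genes, the family stood at 495 ± 24.1 FPKM in WT ASCs and 494 ± 6.74 FPKM in knockout ASCs.

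**Figure D2:**
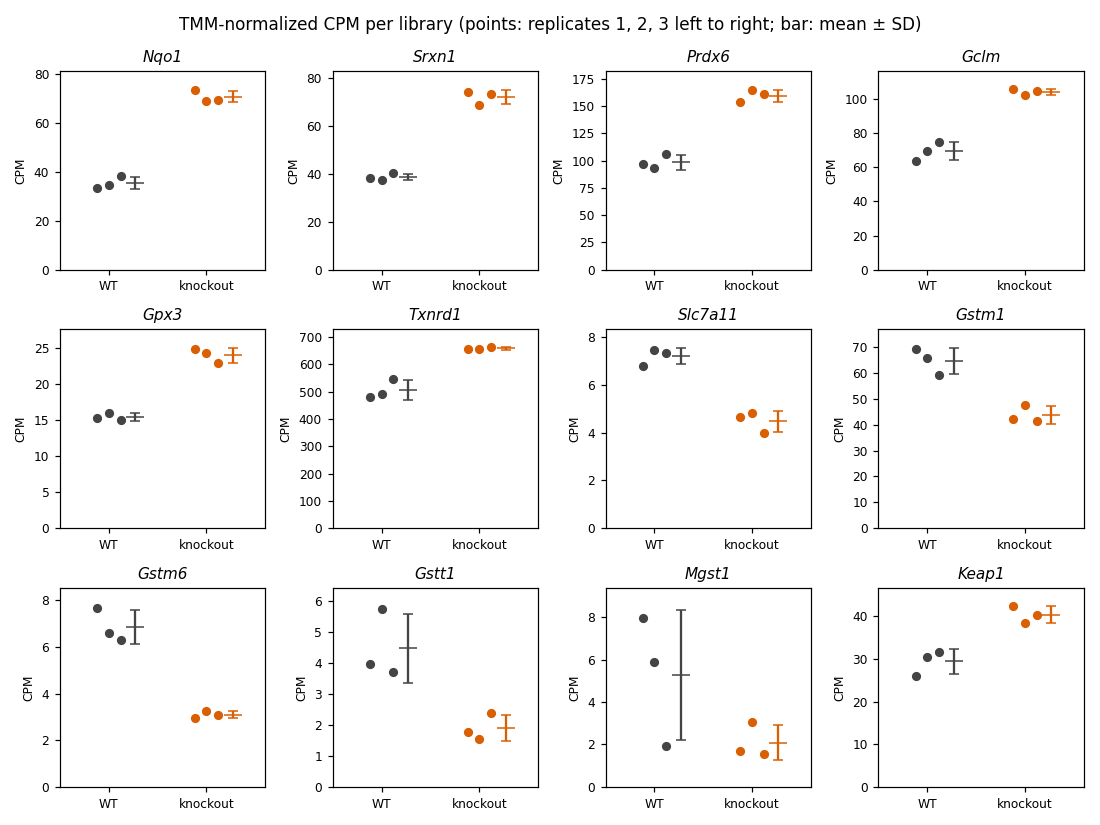
TMM-normalized CPM (vertical axes, from 0) for 12 genes in each library, WT in grey and knockout in orange, with replicates 1, 2 and 3 from left to right and the mean ± SD as a bar. In 11 of the panels the groups do not overlap, and in the *Mgst1* panel WT replicate 3, at 1.94 CPM, lies within the knockout range.

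In the thioredoxin system the cytosolic reductase rose while thioredoxin itself did not pass. *Txnrd1* read 481, 489.8 and 546 CPM in WT replicates 1, 2 and 3 and 654, 655 and 664 CPM in knockout replicates 1, 2 and 3, with the knockout libraries close together and all above WT (log2 0.38 ± 0.053, adjusted p 0.000104). *Txn1*, the cytosolic thioredoxin and the highest of the 54 genes per length, stood at 307 ± 8.66 FPKM in WT and 315 ± 15.3 FPKM in knockout ASCs (log2 0.03 ± 0.051, adjusted p 0.606). *Txnip*, which binds thioredoxin and holds it back, rose by 0.37 ± 0.081 (adjusted p 0.00248), and 19.4% of its exon bases lie in exons of an antisense gene. Of the mitochondrial pair, *Txn2* rose by 0.17 ± 0.055 (adjusted p 0.0273, lost under 5 of the 14 settings) and its reductase *Txnrd2* did not pass (0.13). *Txnrd3*, a reductase with a glutaredoxin domain best known from testis, fell by 0.26 on the log2 scale (adjusted p 0.0223, lost under 4 settings). None of the 3 glutaredoxins, which reduce disulfides with glutathione, passed, except *Glrx* and *Glrx2* as lower with library totals. The lowest p was that of the mitochondrial *Glrx2*, with 19.4, 19.5 and 19.0 CPM in WT and 18.4, 16.9 and 16.3 CPM in knockout replicates 1, 2 and 3 (log2 -0.16 ± 0.071, adjusted p 0.0817). *Glrx* had a log2 fold change of -0.22 and *Glrx3* of -0.06.

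In the family of the superoxide dismutases and catalase (*Sod1*, *Sod2* and *Cat*), *Sod1* passed as higher and the other two did not pass, except *Cat* as lower with library totals. This copper-zinc superoxide dismutase of the cytosol read 359, 362 and 361 CPM in WT replicates 1, 2 and 3 and 436, 417 and 407 CPM in knockout replicates 1, 2 and 3. The rise was small next to that of *Srxn1* or *Prdx6* but larger than the spread between libraries (log2 0.22 ± 0.046, adjusted p 0.00189). The mitochondrial manganese enzyme *Sod2* (0.02 ± 0.049, adjusted p 0.731) and catalase, *Cat* (-0.08 ± 0.050, adjusted p 0.189), did not pass.

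The strongest rise of the 53 tested genes was in *Nqo1* (chr8:107388225-107403206), a cytosolic quinone reductase widely used as a readout of NRF2. It read 33.5, 34.4 and 38.1 CPM in WT replicates 1, 2 and 3 and 73.2, 69.1 and 69.4 CPM in knockout replicates 1, 2 and 3, so the lowest knockout library was well above the highest WT library. The change was 1.99-fold (log2 0.99 ± 0.058, adjusted p 1.05e-07). Per length, its level went from 22.8 ± 1.55 to 45.4 ± 1.47 FPKM, from place 21 to place 13 among the 54 genes. Its paralog *Nqo2* did not pass (0.09 ± 0.11, adjusted p 0.508). Of its exon bases, 18.9% lie in exons of *Serpinb6a* on the opposite strand.

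**Figure D3:**
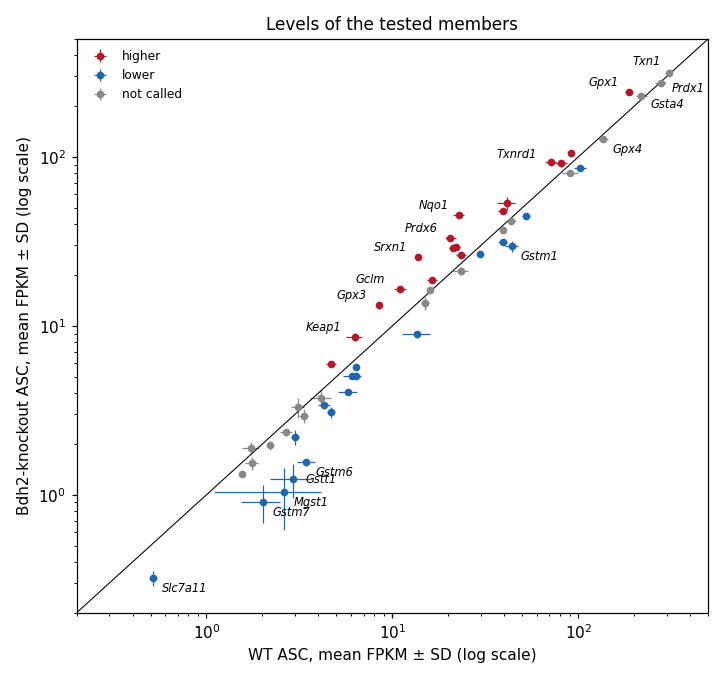
Mean FPKM of the 53 tested genes in WT (horizontal) and knockout ASCs (vertical), both on log scales, with the SD of 3 libraries as bars and the line of equal levels. The most abundant genes, *Txn1* and *Prdx1*, lie near the line, *Nqo1*, *Srxn1* and *Prdx6* lie above it in the middle of the range, and *Mgst1*, *Gstt1*, *Gstm6* and *Gstm7* lie below it among the low levels.

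Glutathione transferases join glutathione to electrophiles so that they can be exported. Of the 13 soluble ones, 8 fell, 2 rose and 3 did not pass, where 20.8% of all tested genes fell and 21.0% rose. The mu class moved together. Of the 5 mu-class genes on the list, *Gstm6* read 7.68, 6.59 and 6.29 CPM in WT replicates 1, 2 and 3 and 2.94, 3.26 and 3.09 CPM in knockout replicates 1, 2 and 3 (log2 -1.14 ± 0.14, adjusted p 3.97e-05). *Gstm7* read 4.12, 2.77 and 2.77 CPM in WT and 1.20, 1.87 and 1.29 CPM in knockout replicates 1, 2 and 3 (log2 -1.14 ± 0.24, adjusted p 0.00205), from counts of 31 to 80 per library. In the fit they stood at 0.453 and 0.455 of their WT levels. *Gstm1*, the most abundant of the class, read 69.0, 65.6 and 59.2 CPM in WT and 42.2, 47.6 and 41.5 CPM in knockout replicates 1, 2 and 3 (log2 -0.56 ± 0.069, adjusted p 4.17e-05). *Gstm2* read 26.7, 18.9 and 22.6 CPM in WT and 15.7, 15.0 and 14.1 CPM in knockout replicates 1, 2 and 3 (log2 -0.60 ± 0.10, adjusted p 0.000556). *Gstm5*, a mu-class gene prominent in brain and testis, read 6.18, 6.09 and 5.62 CPM in WT and 3.67, 4.22 and 3.92 CPM in knockout replicates 1, 2 and 3 (log2 -0.60 ± 0.13, adjusted p 0.00281). In all 5 the knockout libraries lay below the WT range. The mu-class genes are alike in sequence, and 23.1% of the 50-base stretches of *Gstm1*, 11.5% of *Gstm6* and 9.36% of *Gstm2* also occur in other genes, so the split of reads among them is uncertain.

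The mu-class genes sit side by side at chr3:107895821-108044894 (GRCm38). The cluster holds 7 of them, the 5 above and *Gstm3* and *Gstm4*, which come from the wider pathway list and changed by -1.03 ± 0.17 and -0.54 ± 0.10. All 7 passed as lower (20.8% of all tested genes did), with a median of -0.60, and none overlapped between the groups (52.4% of all tested genes did not). The window of 100000 bases to each side was chosen after the values were seen. Of its tested genes that are not transferases, *Ampd2* (0.28 ± 0.053, adjusted p 0.000974) and *Gnai3* (0.22 ± 0.047, adjusted p 0.00214) rose, and *Gnat2* (-0.36 ± 0.24, adjusted p 0.237) and *4933431E20Rik*, which is antisense to *Gstm5* (-0.66 ± 0.35, adjusted p 0.148), did not pass. With the hepatocyte covariate described below both passed as lower, *Gnat2* at -0.72 (adjusted p 0.0394) and *4933431E20Rik* at -1.15 (adjusted p 0.0361). Leaving out 1 library at a time moved *Gnat2* between -0.62 and -0.15 and *4933431E20Rik* between -0.90 and -0.30.

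**Figure D4:**
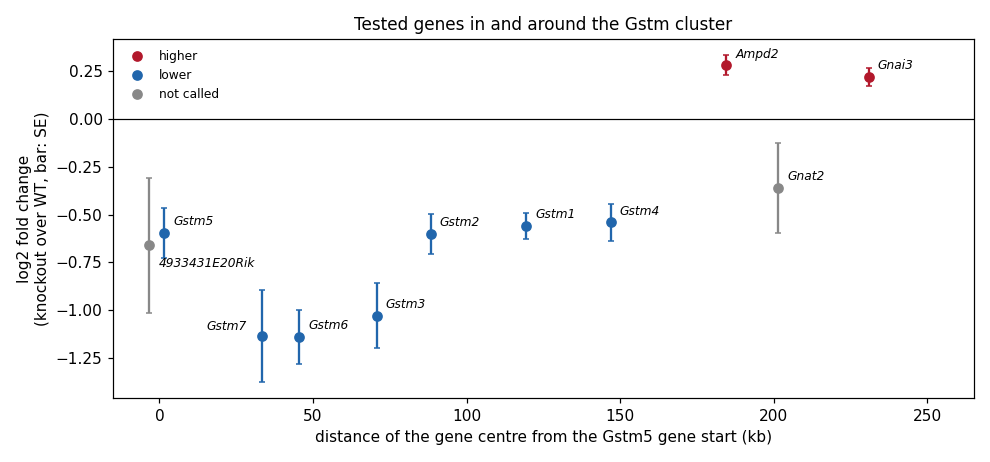
Log2 fold change of knockout over WT ASCs (vertical axis, bar for the standard error) of the 11 tested genes in and around the mu-class cluster, placed by the distance of the gene's centre from the start of *Gstm5* in kilobases. The 7 *Gstm* genes lie between -1.14 and -0.54 in one block, and *Ampd2* and *Gnai3* on its one side lie above 0.

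The theta class, whose genes lie together at chr10:75774115-75837424, was less uniform. *Gstt1* read 3.97, 5.75 and 3.72 CPM in WT replicates 1, 2 and 3 and 1.78, 1.54 and 2.38 CPM in knockout replicates 1, 2 and 3. WT replicate 2 was highest and the groups did not overlap (log2 -1.24 ± 0.22, adjusted p 0.000613). *Gstt2* changed by -0.33 ± 0.068 (adjusted p 0.00201), and *Gstt3* did not pass (-0.20 ± 0.12, adjusted p 0.208). *Gstz1*, which also isomerizes maleylacetoacetate in tyrosine breakdown, read 26.7, 33.1 and 28.2 CPM in WT and 20.9, 20.2 and 20.7 CPM in knockout replicates 1, 2 and 3, with no overlap (log2 -0.51 ± 0.078, adjusted p 0.000221). The 2 that rose were the omega-class *Gsto1* (0.45 ± 0.056, adjusted p 5.11e-05), which also reduces dehydroascorbate, and the pi-class *Gstp1* (0.18 ± 0.061, adjusted p 0.0283). The *Gstp1* call was lost under 5 of the 14 settings, and 62.3% of its 50-base stretches occur in other genes, among them *Gstp2*, which fell. The alpha-class *Gsta4*, which clears the lipid aldehyde hydroxynonenal and was the most abundant transferase at 219 ± 14.4 FPKM in WT, did not pass (0.08 ± 0.053, adjusted p 0.265), and nor did *Gstk1* of mitochondria and peroxisomes (-0.18 ± 0.14). The genes that fell were low next to *Gsta4*, and the family total stood at 408 ± 18.0 FPKM in WT ASCs and 410.2 ± 3.63 FPKM in knockout ASCs.

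Many transferases are also abundant in liver, and the hepatocyte transcripts were lower in the knockout libraries for 15 of 19 tested markers, 18 of the 19 with overlapping groups. With a hepatocyte score per library as a covariate, the log2 fold changes of the mu-class genes were -1.01 (*Gstm6*), -0.80 (*Gstm7*), -0.56 (*Gstm2*), -0.50 (*Gstm5*) and -0.42 (*Gstm1*), and that of *Gstt1* was -1.22. These 6 passed with the covariate too. In the 3 libraries with the fewest hepatocyte transcripts, *Gstm6* was at -1.06 and *Gstt1* at -0.85, values that set knockout replicates 1 and 3 against WT replicate 3 alone, so that the WT arm has no replicate.

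The microsomal transferase *Mgst1* (chr6:138140316-138156755), which reduces lipid hydroperoxides in membranes, was different. It read 7.98, 5.90 and 1.94 CPM in WT replicates 1, 2 and 3 and 1.67, 3.04 and 1.54 CPM in knockout replicates 1, 2 and 3. The groups overlapped, and its libraries stood in the order of the hepatocyte markers, as those of no other gene on the list did. Its log2 fold change was -1.31 ± 0.40 (adjusted p 0.0181), and -0.14 with the covariate, where it did not pass. In the 3 libraries with the fewest hepatocyte transcripts, of which 1 is WT, it was -0.27, and the call was lost under 7 of the 14 settings. Leaving out WT replicate 1 or 2 or knockout replicate 1 or 3 each ended it, with a log2 fold change between -1.72 and -0.87 over the 6 omissions. *Mgst3* did not pass (-0.13 ± 0.083, adjusted p 0.241). Of the 35 called genes, 33 moved by no more than 0.15 with the covariate, and *Mgst1* and *Gstm7* moved by more. The covariate ended 6 calls, those of *Mgst1*, *Chac2*, *Gpx7*, *Txn2*, *Gstp1* and *Nfe2l2*.

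**Figure D5:**
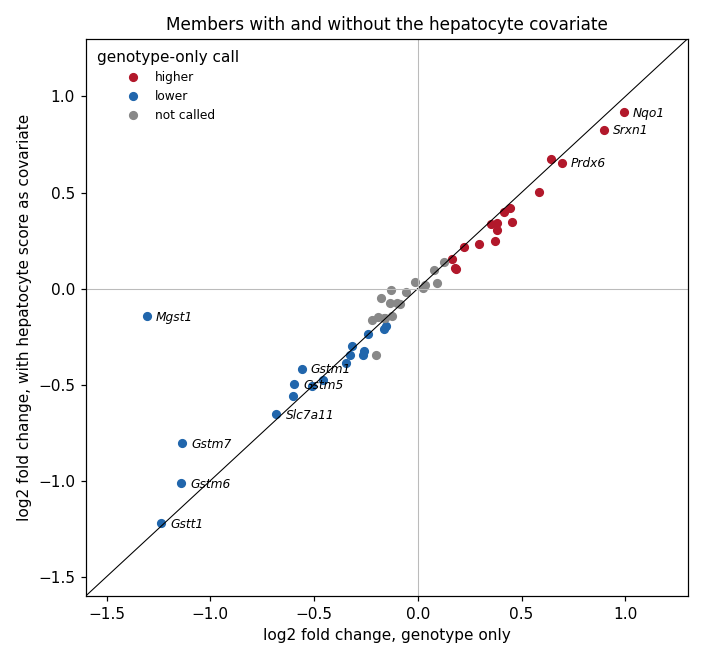
Log2 fold change of the 53 tested genes without (horizontal) and with the hepatocyte score as a covariate (vertical), coloured by the call without it, with the line of equal values. *Mgst1* moves from -1.31 to -0.14 and *Gstm7* from -1.14 to -0.80, while the others stay near the line.

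Of the regulators, *Keap1*, which codes for the adaptor that sends NRF2 to degradation, rose most. It read 26.1, 30.5 and 31.6 CPM in WT replicates 1, 2 and 3 and 42.4, 38.4 and 40.4 CPM in knockout replicates 1, 2 and 3, with no overlap (log2 0.46 ± 0.072, adjusted p 0.000274). *Nfe2l2*, the gene of NRF2, rose by 0.18 ± 0.057 (adjusted p 0.0204), a call lost under 5 of the 14 settings. *Nfe2l1*, the gene of the related NRF1, which drives proteasome genes, fell by 0.24 on the log2 scale (SE 0.049, adjusted p 0.0016). RNA levels say nothing of how much NRF2 protein was present.

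Around these genes, a second list of the pathway held 81 further symbols in 82 rows of the table, of which 75 were tested, 15 rose and 18 fell (44.0% called). This share was close to the 41.7% of all tested genes, of which 21.0% rose and 20.8% fell. The partners and regulators of NRF2 had 6 higher and 2 lower of 12: *Bach1*, a repressor that competes at the same elements, rose by 0.46 ± 0.051 (adjusted p 1.8e-05), while *Nfe2l3*, the third NRF factor, fell most of the list, by 1.58 on the log2 scale (SE 0.18, adjusted p 2.09e-05). The other lower gene was *Bach2*, the paralog of *Bach1* (-0.26 ± 0.084, adjusted p 0.0269), whose call was lost with DESeq2, with no filter, with the hepatocyte covariate and without WT replicate 1 or 3 or any knockout replicate (log2 -0.30 to -0.20 over the 6 omissions). Among the 13 tested genes of NADPH supply, 3 rose and 3 fell. The pentose phosphate dehydrogenases *Pgd* (0.55 ± 0.055, adjusted p 7.86e-06) and *G6pdx* (0.28 ± 0.051) and malic enzyme, *Me1* (0.32 ± 0.053), rose, and the mitochondrial *Mthfd2* (-0.51 ± 0.060, adjusted p 2.98e-05), *Idh2* (-0.42 ± 0.054) and *Nadk2* (-0.34 ± 0.053) fell. *Chac1*, which degrades glutathione and is induced by amino acid and reticulum stress, read 44.1, 50.3 and 52.1 CPM in WT and 24.2, 16.6 and 20.3 CPM in knockout replicates 1, 2 and 3 (log2 -1.26 ± 0.11, adjusted p 1.91e-06), with no overlap. It stood beside 4 other lower and no higher genes among 12 tested of glutathione metabolism and transport. Of the 9 tested transferases off the main list, 4 fell and none rose: *Gstm3*, *Gstm4*, *Gstp2* (-0.57 ± 0.17) and *Gstp3* (-0.73 ± 0.16). The *Gstp2* call was lost with the hepatocyte covariate (-0.36) and without WT replicate 1 or knockout replicate 2 (log2 -0.74 to -0.30 over the 6 omissions), and in the fit to the 3 libraries with the fewest hepatocyte transcripts, 1 of them WT, neither *Gstp2* (-0.09) nor *Gstp3* (-0.38) passed. *Hmox1*, the heme oxygenase that NRF2 and BACH1 both control, read 94.1, 95.5 and 100.2 CPM in WT and 88.2, 80.8 and 89.8 CPM in knockout replicates 1, 2 and 3. It was slightly lower (log2 -0.16 ± 0.056, adjusted p 0.0311), in contrast to *Nqo1*, *Srxn1* and *Gclm*. The *Hmox1* call was lost with no filter, and when WT replicate 2 or 3 or knockout replicate 1 or 2 was left out (log2 -0.18 to -0.11). Its paralog *Hmox2*, made in most tissues without induction, rose by 0.36 ± 0.071 (adjusted p 0.0013). The thioredoxin-fold genes had 1 higher and 2 lower of 9, the sulfoxide reductases and sestrins 2 higher of 7, and the genes of selenoprotein synthesis 2 higher of 8.

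Summed per family, the levels were as follows. The genes of glutathione synthesis and turnover stood at 49.3 ± 1.83 FPKM in WT ASCs and 59.4 ± 0.364 FPKM in knockout ASCs. Of these 6 genes only *Gclc* and *Gclm* were higher. The other 4 (*Gss*, *Ggt1*, *Ggct* and *Chac2*) lay below the WT range in every knockout library. The reductase and peroxidases stood at 379 ± 1.29 FPKM in WT ASCs and 441 ± 6.68 FPKM in knockout ASCs. The thioredoxin system summed to 451 ± 15.5 FPKM in WT ASCs and 494 ± 14.9 FPKM in knockout ASCs. That sum includes *Txnip*, which holds thioredoxin back and went from 41.1 to 53.3 FPKM. The superoxide dismutases and catalase summed to 146 ± 1.44 FPKM in WT ASCs and 159 ± 3.99 FPKM in knockout ASCs. The ratio of knockout to WT sums was highest for the quinone reductases (1.88), most of whose sum is *Nqo1*, and lowest for cystine uptake (0.833) and the microsomal transferases (0.837). Most of the cystine uptake sum is *Slc3a2*, at 0.834 of its WT level in the fit, while *Slc7a11* stood at 0.623 of its WT level. The sums of the microsomal transferases overlapped between the groups, at 19.6, 18.1 and 15.1 FPKM in WT and 14.4, 14.1 and 15.7 FPKM in knockout replicates 1, 2 and 3, and WT replicates 1 and 2, the highest, were also those with the most hepatocyte transcripts. Per length the order at the top was *Txn1*, *Prdx1*, *Gsta4*, *Gpx1* and *Gpx4* in WT ASCs, and *Gpx1* stood above *Gsta4* in knockout ASCs.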

How the data were processed

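Bulk RNA libraries (Illumina TruSeq RNA kit) of 3 WT and 3 *Bdh2*-knockout ASC samples were used. Per the labels and the study's methods, the authors aligned reads with HISAT2 2.0.5 to GRCm38 and counted them per gene with FeatureCounts. The deposited values are raw counts, summing to 18927748 to 28333541 per library. Strand and multi-mapping settings and the annotation release are not given in the sources used here, and 99.4% of the gene IDs matched GENCODE M21.

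Counts were tested with edgeR 4.0.16 (filterByExpr by genotype, TMM, glmQLFit, glmQLFTest; genotype as the only factor) over 16758 of 54715 genes, with Benjamini-Hochberg adjustment over all of them and a threshold of 0.05. Standard errors were derived from the log2 fold change and its F value. Alternatives used DESeq2 1.42.0, limma-voom (limma 3.58.1), other size factors and filters, a replicate block, a hepatocyte covariate (mean log2 CPM of the marker list per library) and each library left out. On simulated counts with 200 of 16758 genes changed by 1 on the log2 scale, edgeR recovered 180 with 11 false calls. FPKM used the gene lengths deposited with the counts.

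Values per library are given for listed genes that passed with a log2 fold change of at least 0.5, for the gene of lowest p in each family, and for *Nqo1*, *Gstt1* and *Gstm7*; of the wider pathway, genes passing at 0.5 or more are named, with *Hmox1* and *Hmox2*. Other pathway genes named beside them (*Bach1*, *Bach2*, *G6pdx*, *Gpx2*, *Gpx6*, *Idh2*, *Me1*, *Nadk2*) were picked after their values were seen. The genes, lists and tests were chosen with earlier results of these data known. Fibroblast and blood markers, also checked, had 1 lower of 6 and 1 lower of 2 tested.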

Additional observations from a re-analysis of the deposited data

How the results depend on the processing

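The counts of listed genes stayed between 13 and 17 higher and between 13 and 25 lower over the alternatives, and 26 of the 35 called genes kept their call and direction under every planned one. No call changed direction. The most lower calls came from library totals without TMM (14 higher and 25 lower), a scaling that also moved the share of higher genes among all calls from 50.3% to 38.0%. An adjusted p of 0.01 left 13 higher and 13 lower, DESeq2 called 16 and 15, and the hepatocyte covariate 13 and 16. Leaving out each library in turn gave 14 to 17 higher and 13 to 17 lower, and for the wider pathway list 12 to 21 higher and 13 to 19 lower. Beside *Mgst1*, leaving out 1 library ended the calls of *Gpx7* (without WT 1 or knockout 2, log2 0.31 to 0.40 over the omissions), *Gstp1* and *Nfe2l2* (without WT 1, WT 2 or knockout 1, 0.15 to 0.25 and 0.14 to 0.24), *Txn2* (without WT 2, knockout 2 or knockout 3, 0.12 to 0.20), *Txnrd3* (without WT 3, knockout 1 or knockout 3, -0.32 to -0.17), *Prdx5* (without WT 2, WT 3 or any knockout library, -0.18 to -0.12), and *Chac2* and *Gss* (without WT 1, WT 3 or any knockout library, -0.40 to -0.28 and -0.18 to -0.13). In a fit chosen after seeing the data, on WT replicate 3 and knockout replicates 1 and 3, where the lone WT library is assumed to vary like the knockout ones, 14 were higher and 16 lower, and *Ggt1*, called in every other setting, lost its call. Deviations of same-numbered libraries from their group means correlated at -0.15, 0.10 and 0.24, and those of differently numbered libraries at -0.35 to 0.31. With 3 libraries per group these values cannot decide whether the replicate numbers pair the libraries. With the replicate block, 17 were higher and 15 lower, *Chac2*, *Prdx5* and *Gss* losing their calls. Depth limited *Mgst2*, at 1 to 5 counts, and the *Gstm7* value, at 31 to 80 counts per library.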
